A study of Rattus norvegicus with 28 samples.

Results

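The fibrillar collagen and fibronectin genes were followed across 7 groups of 4 RNA sequencing libraries, together with Pdgfrb, a marker of stromal cells and pericytes. The set held 5 of the 32545 rat Ensembl identifiers in the deposited table, fixed by identifier, with no threshold on a measured value, though earlier results of these data were known: ENSRNOG00000003897 (Col1a1), ENSRNOG00000011292 (Col1a2), ENSRNOG00000003357 (Col3a1), ENSRNOG00000014288 (Fn1) and ENSRNOG00000018461 (Pdgfrb). The table holds no gene symbols and no identifier matched the reference gene table, so the pairing of these identifiers with symbols rests on the rule that defined the set and could not be checked in the data.

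All libraries are labelled as rat neural progenitor cells. The groups were exposed to injured spinal cord for 2, 3 or 4 weeks, exposed to spinal cord with no injury named in the label (called uninjured here) for 2, 3 or 4 weeks, or kept in culture. The labels give no strain, age or sex and do not say if the RNA came from sorted cells or if replicates were separate animals, and the series text says only that stem cells were transplanted in rodents with spinal cord injury. The spread behind each p-value is thus that of these libraries and may be technical. With no symbols in the table, the cell type label and the amount of tissue RNA could not be checked against marker genes.

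Type I collagen, built from chains encoded by Col1a1 and Col1a2, and type III collagen, encoded by Col3a1, form the stiff fibrils of connective tissue. Fibronectin, encoded by Fn1, is a secreted glycoprotein on which fibroblasts lay down collagen and to which cells hold through integrins. Pdgfrb encodes a receptor for platelet-derived growth factor that is carried by pericytes and fibroblasts. In the central nervous system these cells lie around blood vessels and in the meninges, and they are a source of fibrillar collagen in the scar that forms after spinal cord injury.

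Library totals ran from 3671962 to 4467448 counts in injured week 4, 3147432 to 3614226 in injured week 3, 2605188 to 4449811 in uninjured week 4, between 2886760 and 6824050 in uninjured week 3, and 5273204 to 6908508 in culture. Depth was much lower at week 2, where totals ran between 84532 and 446331 in the injured and between 189626 and 426992 in the uninjured group, so that week 2 and low depth cannot be told apart. Week 2 libraries also resembled each other less. Their mean Spearman correlation with their own group across all genes was 0.53 to 0.656 in injured and 0.644 to 0.693 in uninjured libraries. In the other groups of the fit it was 0.957 or more. Levels are given in CPM, counts scaled to a common library size with TMM factors. Counting error and floors cover sequencing only, since the labels name no molecular identifiers.

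One library was left out of the fit. Injured week 3 replicate 3 lacked any count at 2755 genes, of 9636 that its companions all predicted at 20 or more, and the most for any other library was 3. Col3a1 and Fn1 were among the genes at 0 there, and were treated as missing. Col1a1 had 40 counts in that library and Pdgfrb 44, which are 11.1 and 12.2 CPM on its plain total. Results that rest on injured week 3 thus have 3 libraries, replicates 1, 2 and 4, and calls lost when replicate 3 is kept are named beside the result. When it is kept, in the fit of all 28 libraries, its zeros enter as counts. The coefficient of variation shared over genes was 45.5% in that fit, against 27.5% in the reported fit, and all comparisons draw on this spread.

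A further library stood apart in these genes while resembling its group. Uninjured week 3 replicate 3 held 4.75 CPM of Col1a1, 6.65 of Col3a1 and 186 of Fn1, far below its 3 companions. Its mean Spearman correlation with those companions across all genes was 0.960, against at least 0.972 for the others. Its Pdgfrb level of 33.6 CPM was close to the 34.3 CPM of replicate 2.

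Col1a2 was practically absent from the table. It had 2 counts in all 28 libraries together, 1 each in uninjured week 4 replicates 1 and 3, while Col1a1, whose product it joins in the type I trimer, had counts in every library. A count of 0 allows up to 0.229 CPM over the injured week 4 group, 0.191 CPM over uninjured week 3 and 0.1299 CPM over culture (3 counts over the group). Col1a2 did not pass the filter on low counts and no comparison was possible for it. Why it was not counted was not tested, and its values say nothing firm about type I collagen.

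**Figure D1:**
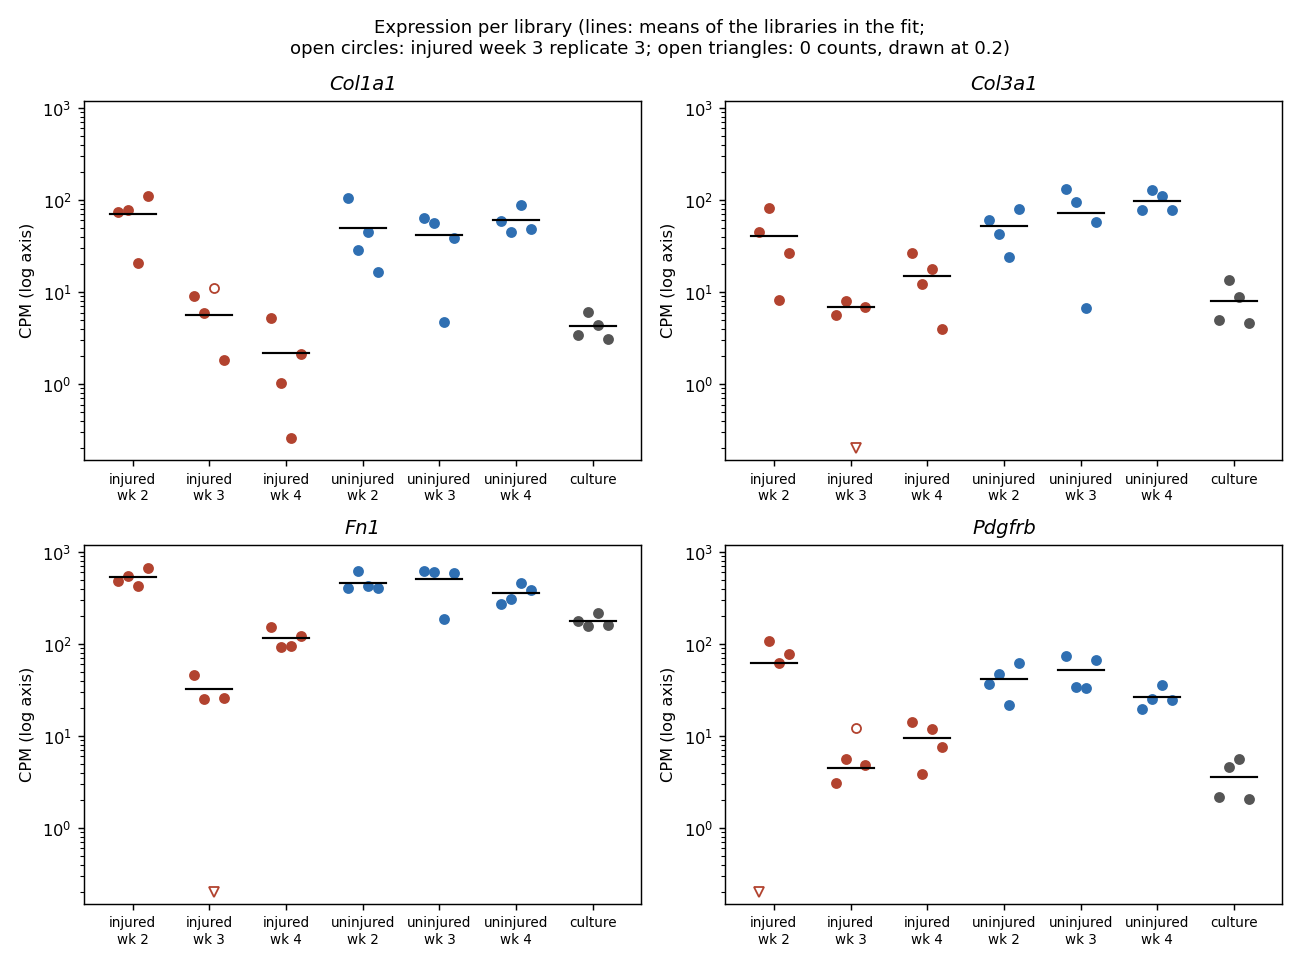
Expression of Col1a1, Col3a1, Fn1 and Pdgfrb in each library, in CPM on a log axis, for injured weeks 2 to 4, uninjured weeks 2 to 4 and culture. Points are libraries, lines are the means of the libraries in the fit, open circles are injured week 3 replicate 3 and open triangles are libraries with 0 counts. At weeks 3 and 4 the injured libraries in the fit lie below the uninjured libraries of the same week, except that uninjured week 3 replicate 3 falls among the injured libraries for Col1a1 and Col3a1.

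The comparison of injured with uninjured cord asks how matrix gene expression in the exposed samples differed with injury. At week 4 all 4 testable genes were lower in injured libraries, Col1a1 by 27.98-fold, Col3a1 by 6.51-fold, Fn1 by 3.07-fold and Pdgfrb by 2.74-fold. Of all 14282 genes tested, 15.2% were called lower in this comparison (an adjusted p under 0.05 by the quasi-likelihood test of edgeR). The median log2 fold change was -2.16 over the 4 genes and 0.0071 over all genes. The median over all genes depends on the TMM scaling and is not a measure of how many genes moved. These are bulk libraries, so fewer cells of a type and less RNA per cell cannot be told apart.

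Col1a1 fell the furthest in fold at week 4. It stood at 5.21, 1.04, 0.259 and 2.14 CPM in injured libraries, from 16, 3, 1 and 7 counts, against 58.6, 45.4, 87.4 and 48.7 CPM in uninjured libraries, from 181, 187, 232 and 172 counts. Every injured library lay below every uninjured one. The fitted log2 ratio was -4.81 (SE 0.65, edgeR adjusted p = 3.13e-07). Replicate 1 held most of the injured signal, and without it the log2 fold change was -5.72. In the RefSeq table of assembly GRCr8 the Col1a1 gene overlaps Sgca, so some Col1a1 counts may be uncertain if the counting did not use strand, which the sources used here do not give.

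Col3a1 stood at 26.7, 12.1, 17.6 and 3.98 CPM in injured week 4 libraries, against 78.0, 127.2, 110.8 and 78.1 CPM in uninjured week 4 libraries. The groups did not overlap. The fitted log2 ratio was -2.70 (SE 0.59, edgeR adjusted p = 0.000727).

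Fn1 stood at 154.5, 91.8, 94.2 and 123.1 CPM in injured week 4 libraries, against 271, 307, 464 and 381 CPM in uninjured week 4 libraries. Again every injured library lay below every uninjured one. The fitted log2 ratio was -1.62 (SE 0.28, edgeR adjusted p = 1.36e-05). With each library of the fit left out in turn it ran from -1.809 to -1.488 and stayed called. With all 28 libraries in the fit it was -1.66 with a standard error of 0.62, and the call was lost (edgeR adjusted p = 0.0679). The library added there, injured week 3 replicate 3, had 0 counts of Fn1 and belongs to neither group compared.

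Pdgfrb, the stromal receptor, stood at 14.3, 3.81, 11.9 and 7.66 CPM in injured week 4 libraries, against 19.7, 25.2, 35.4 and 24.3 CPM in uninjured week 4 libraries. The highest injured library lay below the lowest uninjured one. The fitted log2 ratio was -1.46 (SE 0.41, edgeR adjusted p = 0.00589). With libraries thinned to the week 2 depth, chosen after seeing the data, the call was lost (-1.78, edgeR adjusted p = 0.0869).

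At week 3 the same 4 genes were again lower in injured libraries, where 25.3% of all genes tested were called lower. Here Fn1 differed most, at 15.5-fold, followed by Pdgfrb at 11.5-fold, Col3a1 at 10.7-fold and Col1a1 at 7.35-fold. The median log2 fold change was -3.47 over the 4 genes and 0.0070 over all genes. The median over all genes depends on the scaling, and was 0.26 with RLE in place of TMM factors.

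Fn1 stood at 46.2, 25.2 and 26.0 CPM in injured week 3 replicates 1, 2 and 4, against 624, 607, 186 and 593 CPM in uninjured week 3 libraries. Even the low uninjured replicate 3 was above all 3 injured libraries. The fitted log2 ratio was -3.95 (SE 0.36, edgeR adjusted p = 9.92e-13).

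Pdgfrb stood at 3.10, 5.65 and 4.83 CPM in injured week 3 replicates 1, 2 and 4, against 73.8, 34.3, 33.6 and 67.3 CPM in uninjured week 3 libraries. The groups did not overlap, and the 12.2 CPM of the left-out injured replicate 3 also lay below all uninjured libraries. The fitted log2 ratio was -3.53 (SE 0.50, edgeR adjusted p = 9.2e-08).

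The collagens separated less cleanly at week 3. Col1a1 stood at 9.01, 5.93 and 1.81 CPM in injured week 3 replicates 1, 2 and 4, against 64.6, 56.7, 4.75 and 39.1 CPM in uninjured week 3 libraries, a fitted log2 ratio of -2.88 (SE 0.63, edgeR adjusted p = 0.000273). Col3a1 stood at 5.63, 7.91 and 6.94 CPM in injured week 3 replicates 1, 2 and 4, against 131, 95.2, 6.65 and 58.2 CPM in uninjured week 3 libraries, a fitted log2 ratio of -3.42 (SE 0.70, edgeR adjusted p = 0.000201). In both genes uninjured replicate 3 fell within the injured range and the other 3 uninjured libraries lay above it. Without injured replicate 4 the log2 fold change of Col1a1 was -2.21, and without uninjured replicate 1 that of Col3a1 was -2.83, both still called.

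At week 2 none of the 4 genes was called, where 3.37% of all genes were called in either direction. Col1a1 averaged 70.6 ± 37.1 CPM at injured week 2 and 49.4 ± 39.9 CPM at uninjured week 2, and Col3a1 40.5 ± 31.6 CPM at injured and 52.0 ± 23.8 CPM at uninjured week 2 (SD, n = 4 each). Fn1 averaged 531 ± 100.5 CPM at injured and 462 ± 103.7 CPM at uninjured week 2, and Pdgfrb 61.8 ± 45.3 CPM at injured and 42.0 ± 17.3 CPM at uninjured week 2 (SD, n = 4 each). In each gene the ranges of the 2 groups overlapped. The 95% intervals of the log2 fold change ran from -0.81 to 1.81 for Col1a1, from -1.95 to 1.26 for Col3a1, from -0.25 to 1.77 for Pdgfrb and from -0.38 to 0.79 for Fn1. The edgeR adjusted p ran from 0.4 for Pdgfrb to 0.861 for Col3a1. The injured group held only 92 counts of Col1a1 and 53 of Col3a1 in all, and injured replicate 1, the shallowest library, had 0 counts of Pdgfrb, which allows up to 22.3 CPM.

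**Figure D2:**
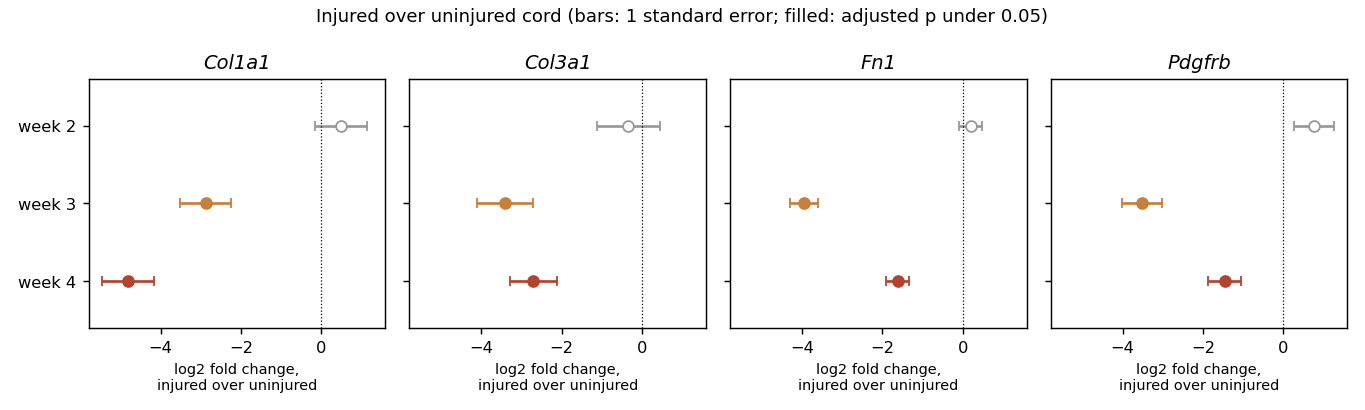
Log2 fold change of injured over uninjured cord for each gene at weeks 2, 3 and 4, from the fit without injured week 3 replicate 3. Bars are 1 standard error and filled points have an adjusted p under 0.05. The week 2 values lie between -0.34 and 0.76, and all week 3 and week 4 values lie at -1.46 or below.

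The order of the genes by fold thus differed between weeks 3 and 4, and the change of the injury effect itself was tested. On the log2 scale it was smaller at week 4 for Fn1, by 2.34 (SE 0.42, edgeR adjusted p = 3.99e-05), and for Pdgfrb, by 2.07 (SE 0.64, edgeR adjusted p = 0.0156). Of all genes 11.5% were called with a positive difference (week 4 minus week 3) and 7.26% with a negative one, whatever the sign of their injury effect. For Col1a1 the difference was -1.93 (SE 0.90, edgeR adjusted p = 0.15) and for Col3a1 0.71 (SE 0.87, edgeR adjusted p = 0.681), so neither was called. The Col1a1 difference was called without the low count filter (-2.16, edgeR adjusted p = 0.00514), without injured week 4 replicate 1 (-2.98, edgeR adjusted p = 0.0313) and without injured week 3 replicate 4 (-2.60, edgeR adjusted p = 0.0457).

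Both calls were lost when injured week 3 replicate 3 was kept, and only the Pdgfrb call also depended on single libraries of the fit. The Fn1 call held with each library of the fit left out, at 1.945 to 2.689. With all 28 libraries the difference was 2.56 for Fn1 (SE 0.88, edgeR adjusted p = 0.0524) and 1.70 for Pdgfrb (SE 0.73, edgeR adjusted p = 0.141). The 0 counts of Fn1 in injured week 3 replicate 3 entered that fit as counts. The Pdgfrb call was also lost without any one of injured week 3 replicates 1 and 4, uninjured week 3 replicate 1 and injured week 4 replicates 1 and 3, with differences of 1.86, 1.85, 1.68, 1.65 and 1.76 (edgeR adjusted p = 0.0654, 0.0703, 0.0696, 0.0862 and 0.0624). With thinned libraries it was 2.31 (edgeR adjusted p = 0.279).

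Within injured cord, Fn1 rose at week 4 relative to week 3, by a fitted log2 ratio of 1.84 (SE 0.33, edgeR adjusted p = 1.93e-05), where 13.8% of all genes were called higher and 7.77% lower. Its injured week 4 libraries, at 91.8 to 154.5 CPM, all lay above its injured week 3 libraries, at 25.2 to 46.2 CPM. Col3a1 and Pdgfrb averaged 15.1 ± 9.54 and 9.42 ± 4.65 CPM at injured week 4 (SD, n = 4) and 6.83 ± 1.15 and 4.53 ± 1.31 CPM at injured week 3 (SD, n = 3), and neither was called. Col1a1 averaged 2.16 ± 2.17 CPM at injured week 4 (SD, n = 4) and 5.58 ± 3.61 CPM at injured week 3 (SD, n = 3), with a fitted log2 ratio of -1.40 (SE 0.76, edgeR adjusted p = 0.213). Without injured week 4 replicate 1 this became -2.42, which was called (edgeR adjusted p = 0.0454), as it was without the low count filter (-1.60, edgeR adjusted p = 0.0174).

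In uninjured cord none of the 4 genes was called between weeks 4 and 3, where 0.525% of all genes were. That share is 75 genes, and it was unstable, at 2 to 161 genes with each library left out and 0 to 2807 over all alternatives run. Pdgfrb averaged 26.2 ± 6.61 CPM at week 4 and 52.2 ± 21.3 CPM at week 3 (SD, n = 4 each), a fitted log2 ratio of -1.01 (SE 0.38, edgeR adjusted p = 0.205). It was called when the shallow week 2 libraries were left out of the fit, at -1.02 (SE 0.31, edgeR adjusted p = 0.0353). With limma voom and quality weights both Pdgfrb (-0.94, adjusted p = 0.0332) and Fn1 (-0.71, adjusted p = 0.0128) were called lower.

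Between weeks 3 and 2 all 4 genes fell in injured cord, where 20% of all genes were called lower. The log2 fold changes were -4.03 for Fn1, -3.91 for Pdgfrb, -3.61 for Col1a1 and -2.51 for Col3a1 (SE 0.36, 0.54, 0.69 and 0.81, edgeR adjusted p = 2.5e-12, 1.14e-07, 7.93e-05 and 0.0136). Fn1 averaged 32.4 ± 11.9 CPM at injured week 3 (SD, n = 3) and 531 ± 100.5 CPM at injured week 2 (SD, n = 4). The Col3a1 call rested on injured week 2 replicate 2, without which the log2 fold change was -1.64 (edgeR adjusted p = 0.207), and it was lost with limma voom and quality weights (-2.08, adjusted p = 0.339). Injured week 2 replicate 1, with 0 counts of Pdgfrb, was the one library that made the Pdgfrb ranges overlap. Without injured week 3 replicate 1 the log2 fold change of Col1a1 was -4.29. In uninjured cord none of the 4 was called between weeks 3 and 2, where 20.3% of all genes were called in either direction, and the log2 fold changes lay between -0.23 and 0.56. With the deeper libraries thinned to the week 2 depth, a check chosen after seeing the data, all 4 genes were still called between the injured weeks and none between the uninjured weeks. Thinning matched the deeper libraries to the median week 2 total alone, and agreement between the thinned libraries was not computed. The part of depth in these differences was not tested further.

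Exposed samples were also set against cells in culture. Here RNA from surrounding cord tissue and a change in the cells themselves cannot be told apart. In uninjured cord all 4 genes were higher than in culture at each week, where 20%, 26.0% and 26.3% of all genes were called higher at weeks 2, 3 and 4. The rise of Col1a1 on the log2 scale was 3.52 at week 2, 3.29 at week 3 and 3.81 at week 4 (SE 0.67, 0.56 and 0.57, edgeR adjusted p = 6.69e-05, 7.15e-06 and 7.84e-07). Culture libraries held 3.39, 6.13, 4.38 and 3.09 CPM of it, and only uninjured week 3 replicate 3 among the 12 uninjured libraries fell in that range.

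Col3a1 rose over culture by 2.66, 3.21 and 3.64 on the log2 scale at uninjured weeks 2, 3 and 4 (SE 0.73, 0.60 and 0.61, edgeR adjusted p = 0.00446, 5.46e-05 and 1.37e-05). The week 2 call was lost with limma voom and quality weights (2.68, adjusted p = 0.102). Without uninjured week 3 replicate 1 the week 3 value was 2.59. Pdgfrb rose by 3.49, 3.86 and 2.86 (SE 0.54, 0.44 and 0.44, edgeR adjusted p = 1.07e-06, 4.06e-10 and 4.46e-07), with culture libraries at 2.14, 4.60, 5.655 and 2.06 CPM. All 12 uninjured libraries lay above all 4 culture libraries for Pdgfrb.

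Fn1 was already well counted in culture, at 178, 155, 217 and 160 CPM, and its rise in uninjured cord was the smallest of the 4 genes on the log2 scale at each week. It was 1.38, 1.501 and 1.002 at weeks 2, 3 and 4 (SE 0.29, 0.28 and 0.28, edgeR adjusted p = 0.000141, 1.65e-05 and 0.00272). With all 28 libraries these became 1.39, 1.32 and 0.84, with standard errors of 0.62, 0.62 and 0.61, and none was called (edgeR adjusted p = 0.0883, 0.0946 and 0.32). The library added there had 0 counts of Fn1, entered as counts, and belongs to none of the groups compared. Each rise of Fn1 stayed called with any single library of the fit left out, at 0.706 or more.

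Injured cord departed from this pattern after week 2. At week 2 all 4 genes were higher than in culture, where 19.3% of all genes were. The log2 fold changes were 4.25 for Pdgfrb, 4.02 for Col1a1, 2.31 for Col3a1 and 1.58 for Fn1 (SE 0.48, 0.63, 0.73 and 0.29, edgeR adjusted p = 9.66e-10, 3.44e-06, 0.0119 and 1.79e-05). The Col3a1 call was lost without injured week 2 replicate 2, at 1.44 (edgeR adjusted p = 0.241), and with limma voom and quality weights, at 1.95 (adjusted p = 0.345). At week 3 only Fn1 was called against culture among the 4, and it was lower, by a fitted log2 ratio of -2.45 (SE 0.33, edgeR adjusted p = 1.65e-07). Of all genes 10% were called lower and 9.19% higher, so 1 call among the 4 genes does not stand out from that share. Col1a1, Col3a1 and Pdgfrb lay at log2 fold changes of 0.41, -0.20 and 0.34 from culture, with 95% intervals of -0.92 to 1.75, -1.63 to 1.23 and -0.72 to 1.39.

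At injured week 4 only Pdgfrb was called against culture among the 4, higher by a fitted log2 ratio of 1.40 (SE 0.45, edgeR adjusted p = 0.0128). Over all genes 18.1% were called higher and 15.5% lower, so 1 call among the 4 does not stand out here either. The Pdgfrb call was lost with all 28 libraries, at 1.17 (edgeR adjusted p = 0.122), and without any one of injured week 4 replicates 1 and 3 and culture replicates 1 and 4, at 0.98, 1.09, 1.22 and 1.02 (edgeR adjusted p = 0.13, 0.0909, 0.0592 and 0.118). It was also lost with thinned libraries, at 2.11 (edgeR adjusted p = 0.176). Fn1 in injured week 4 libraries, at 91.8 to 154.5 CPM, lay below all culture libraries, at 155.1 to 217 CPM, but its fitted log2 ratio of -0.61 (SE 0.28) missed the threshold (edgeR adjusted p = 0.087). It was called with RLE factors (-0.75, edgeR adjusted p = 0.028), DESeq2 (-0.75, adjusted p = 0.0272), limma voom (-0.57, adjusted p = 0.00743), no low count filter (-0.85, edgeR adjusted p = 0.00832) and a fit of the compared groups only (-0.60, edgeR adjusted p = 0.0068). It was also called without any one of injured week 3 replicates 2 and 4, injured week 4 replicates 1 and 4, uninjured week 2 replicate 4, uninjured week 3 replicates 1 and 3, uninjured week 4 replicates 2 and 3 and culture replicates 2 and 4, at -0.93 to -0.78. Without the low count filter Col1a1 was called too (-1.23, edgeR adjusted p = 0.0477). Col1a1 and Col3a1 lay at -0.99 and 0.94 (SE 0.71 and 0.60, edgeR adjusted p = 0.312 and 0.258).

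**Figure D3:**
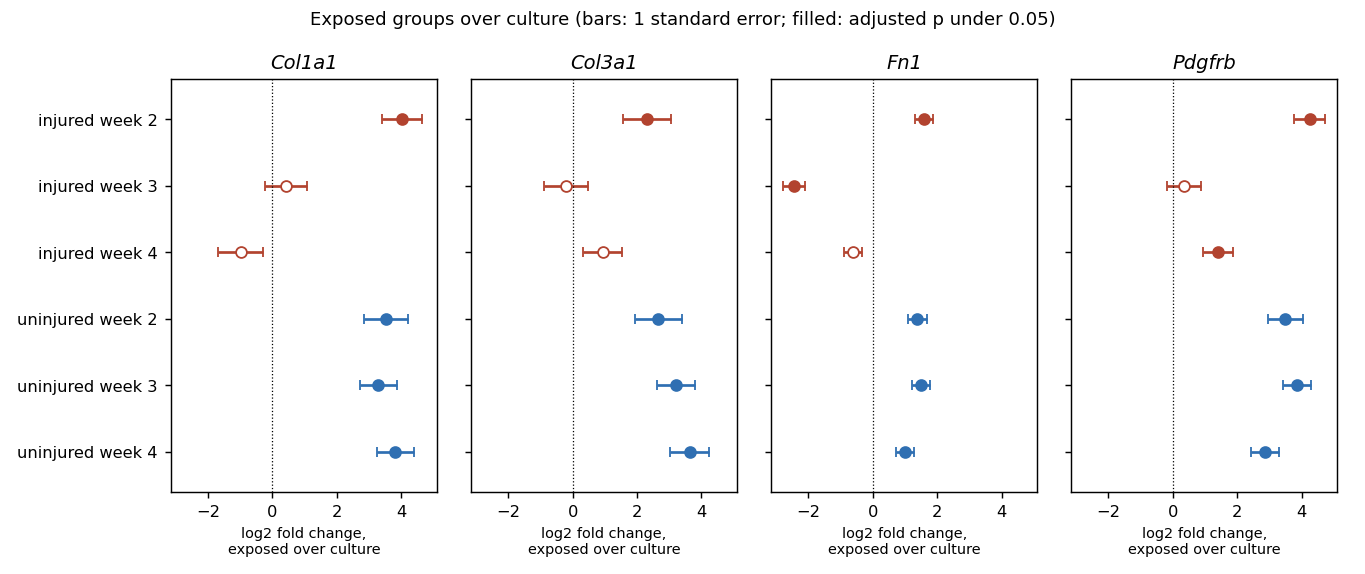
Log2 fold change over culture for each gene in injured weeks 2 to 4 and uninjured weeks 2 to 4, from the fit without injured week 3 replicate 3. Bars are 1 standard error and filled points have an adjusted p under 0.05. Each gene is above culture in injured week 2 and in every uninjured week, while at injured weeks 3 and 4 the values lie between -2.45 and 1.40.

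The order of the 7 groups was similar among the genes, with injured weeks 3 and 4 and culture as the 3 lowest groups in each. For Col1a1 the means were 70.6 CPM in injured week 2, 60.0 in uninjured week 4, 49.4 in uninjured week 2, 41.3 in uninjured week 3, 5.58 in injured week 3, 4.25 in culture and 2.16 in injured week 4. Each neighbouring pair in that order overlapped in its library ranges. For Col3a1 they were 98.5 CPM in uninjured week 4, 72.8 in uninjured week 3, 52.0 in uninjured week 2, 40.5 in injured week 2, 15.1 in injured week 4, 7.93 in culture and 6.83 in injured week 3, and neighbours again overlapped throughout.

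Fn1 was the gene with clear steps. Its means were 531 CPM in injured week 2, 502 in uninjured week 3, 462 in uninjured week 2, 356 in uninjured week 4, 178 in culture, 115.9 in injured week 4 and 32.4 in injured week 3. The last 4 groups in that order did not overlap with one another. For Pdgfrb the means were 61.8 CPM in injured week 2, 52.2 in uninjured week 3, 42.0 in uninjured week 2, 26.2 in uninjured week 4, 9.42 in injured week 4, 4.53 in injured week 3 and 3.62 in culture, and the only neighbours that did not overlap were uninjured week 4 and injured week 4.

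Across the 19 libraries of culture and weeks 3 and 4, the 4 genes varied together in log2 CPM. Pearson r between pairs ran from 0.717 for Col1a1 with Fn1 to 0.848 for Col1a1 with Col3a1, and Spearman rho from 0.658 for Col1a1 with Pdgfrb to 0.765 for Col3a1 with Pdgfrb. These values include the differences between groups. After subtraction of the group means, r was 0.856 for Col1a1 with Fn1, 0.669 for Col1a1 with Col3a1, 0.633 for Col3a1 with Fn1 and 0.532 for Col3a1 with Pdgfrb, and lower for Fn1 with Pdgfrb (0.383) and Col1a1 with Pdgfrb (0.345). Uninjured week 3 replicate 3, far below its companions in Col1a1, Col3a1 and Fn1, is among the 19 libraries. It may weigh heavily in these values, and r without it was not computed. The points share libraries and scaling, so these are descriptions with no test.

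The balance between the genes was compared within libraries, as the log2 ratio of counts to Col1a1 with 1 count added to each. This needs no scaling factor, but the added count weighs more where counts are low, as for Col1a1 in injured week 4 libraries. The version planned earlier required 10 counts of both genes and could not be run, because only 1 of 4 injured week 4 libraries and 2 of 3 injured week 3 libraries met it for Col3a1, and the ratio of Col1a1 to Col1a2 had too few counts in any library. The ratios given here were chosen after seeing the data. At week 4 Fn1 stood at 6.01 ± 1.13 log2 units to Col1a1 in injured and 2.58 ± 0.34 in uninjured libraries, and Pdgfrb at 2.31 ± 1.501 in injured and -1.17 ± 0.32 in uninjured libraries (SD, n = 4 each).

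In both genes the injured and uninjured week 4 ratios did not overlap, with differences of 3.43 for Fn1 and 3.48 for Pdgfrb. Col1a1 fell the furthest at week 4, so the direction of these differences follows from the fold changes above and is not separate evidence. Without injured week 4 replicate 3, which held 1 count of Col1a1, the Pdgfrb difference was 2.73. Each had a p of 0.0286 in an exact permutation test, two-sided, the smallest that 4 against 4 libraries can give, and 0.0857 after adjustment over the 6 comparisons, which misses the threshold. For Col3a1 the ratio was 2.84 ± 1.80 in injured and 0.73 ± 0.52 in uninjured week 4 libraries (SD, n = 4 each, exact permutation p = 0.0571, two-sided, adjusted 0.114). Its difference of 2.12 became 1.36 without injured week 4 replicate 3 and 2.79 without injured week 4 replicate 4. The injured week 4 ratios rest on 1 to 16 counts of Col1a1 in a library. At week 3 the differences were -0.19 for Col3a1, -1.28 for Fn1 and -0.83 for Pdgfrb, with exact permutation p-values of 0.686, 0.171 and 0.514, two-sided, where 3 against 4 libraries can give no less than 0.0571.

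**Figure D4:**
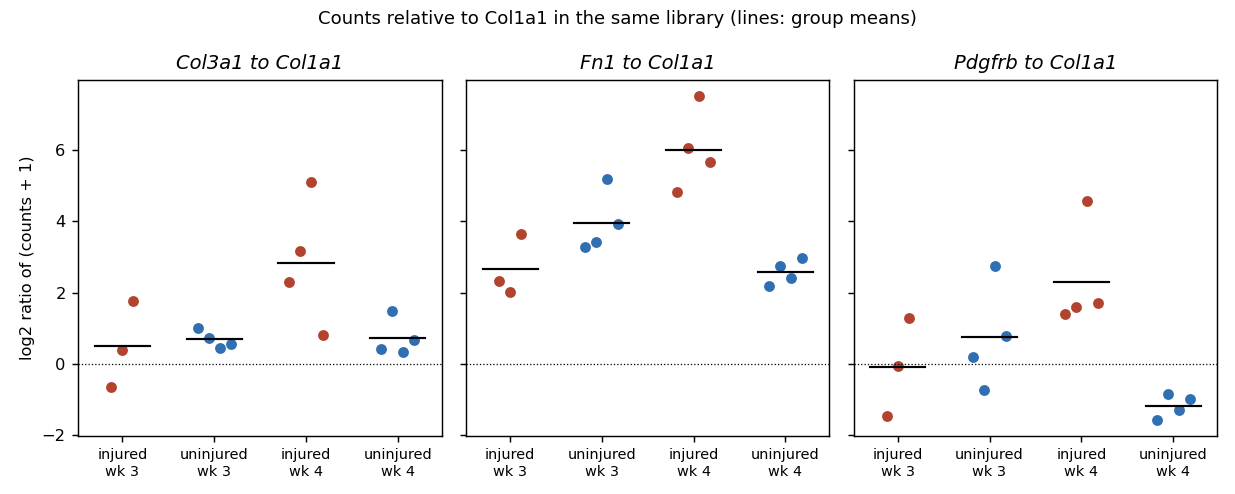
Log2 ratio of Col3a1, Fn1 and Pdgfrb counts to Col1a1 counts in the same library, with 1 count added to each, for injured and uninjured cord at weeks 3 and 4. Points are libraries and lines are group means. The injured week 4 libraries lie above the uninjured week 4 libraries for Fn1 and Pdgfrb, while the week 3 groups overlap.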

How the data were processed

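The authors deposited whole-number counts for each gene, without normalization, in a single table with a column for every library. Per the submitters' processing notes, the tools were featureCounts 1.5.1, STAR 2.5.1, FastQC 0.11.5, StringTie 1.3.3, Trim Galore 0.4.1 and Picard, with no roles given. The same notes name GRCm38, a mouse build, although the identifiers are rat. The strand setting is not given in the sources used here. Per the labels' protocols, libraries were made with a stranded kit for very small amounts of total RNA. Library totals ranged from 84532 to 6908508 counts.

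All comparisons came from 1 quasi-likelihood fit (edgeR 4.0.16, R 4.3.3, robust, TMM factors, filterByExpr) of 27 libraries with a mean per group and 20 residual degrees of freedom. It kept 14282 genes, over which p-values were adjusted by Benjamini-Hochberg, and calls were made under 0.05 in 14 comparisons. The fit was tested on simulated data. Alternatives were all 28 libraries, no week 2 libraries, RLE factors, DESeq2 1.42.0, limma 3.58.1 (voom with quality weights), other filters on low counts (none, or at least 1 CPM in 4 libraries), the compared groups only, thinning of deeper libraries to 317432 counts, and each library left out in turn. The members, lists and tests were chosen with earlier results of these data known. The text names the 5 members. The rule for naming genes of similar pattern and 15 gene lists of other matrix genes, receptors and cell types needed symbols, and 0 identifiers matched the reference table, so neither was run.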

Additional observations from a re-analysis of the deposited data

Results flagged for a closer look

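Fn1 was at 617.5 CPM in uninjured week 2 replicate 2, where the other 3 libraries of the group lay at 405 to 421 CPM, and at 185.6 CPM in uninjured week 3 replicate 3, where the others lay at 593 to 624 CPM. Each stood outside the spread of its companions by Dixon's ratio (0.926 and 0.930). In 24 groups of 4 values these were the 2 found, where chance gives about 1.2. The cause of either value was not tested.

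The injury effect on the log2 scale differed between weeks 4 and 3 for Fn1, by 2.34, and for Pdgfrb, by 2.07, by a test of the difference itself (edgeR adjusted p = 3.99e-05 and 0.0156). With all 28 libraries neither was called (edgeR adjusted p = 0.0524 for Fn1 and 0.141 for Pdgfrb), and the Pdgfrb call was lost in 5 of the fits that left out 1 library. In the fit of all 28, the 0 counts of Fn1 in injured week 3 replicate 3 entered as counts. In both genes the injured level was below the uninjured one at both weeks, and by less at week 4.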

How the results depend on the processing

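No paired analysis was possible because the labels carry no replicate numbers and those used here follow the order of deposition. Counts of the 4 tested genes that were called are given first. The count of all genes called also moved between the alternatives, so these counts may follow it. Its ranges are given at the end. For the change of the injury effect between weeks 4 and 3, 2 were called, 0 with all 28 libraries, 1 with thinned libraries, and 1 to 2 with each library left out. For injured week 4 against culture, 1 was called, 0 with all 28 libraries or thinned libraries, 2 with RLE factors, DESeq2, limma voom or the compared groups only, 3 with no low count filter, and 0 to 2 with each library left out. For injured week 4 against week 3, 1 was called, 2 with no low count filter, and 1 to 2 with each library left out. For uninjured week 4 against week 3, 0 were called, 1 without the week 2 libraries and 2 with limma voom. With each library left out, 4 were called for the injury effect at weeks 3 and 4 and for each uninjured week against culture.

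Directions that turned were all of uncalled values. For Fn1 between uninjured weeks 3 and 2 the log2 fold change was -0.07384 with all 28 libraries, -0.3217 with RLE factors, -0.3224 with DESeq2, -0.02911 with no low count filter, -0.232 with the compared groups only, -0.2513 with thinned libraries, and -0.1815 to 0.2897 with each library left out. For the other genes in that comparison, Pdgfrb was at -0.06291 with RLE factors, -0.09658 with DESeq2 and -0.02206 to 0.4589 with each library left out, Col1a1 at 0.09407 with limma voom and -0.7304 to 0.2543 with each library left out, and Col3a1 at -0.09109 to 0.7424. For Col3a1 between injured and uninjured week 2 the range was -1.21 to 0.09583. Between injured week 3 and culture, Col1a1 was at -0.1173 thinned and -0.1233 to 0.7999 with each library left out, and Col3a1 at 0.1683 thinned and -0.4339 to 0.143. The week 3 ratio difference of Col3a1 to Col1a1 ranged from -0.8241 to 0.3908. The causes were not tested. RLE factors moved the median over all genes most for uninjured week 3 against week 2, by -0.4091, and by 0.2532 for the injury effect at week 3. The count of all genes called varied widely over the alternatives, from 2892 to 9147 (6570 in the reported fit) for the injury effect at week 3, 1418 to 6536 (3895) at week 4 and 0 to 1543 (481) at week 2, and from 934 to 5210 (2674) for its change between weeks 4 and 3. Against culture it was 3065 to 7068 (6422), 853 to 6558 (2744) and 1930 to 8582 (4801) for injured weeks 2, 3 and 4, and 2836 to 7136 (6010), 3066 to 10364 (7124) and 2805 to 9689 (6615) for uninjured weeks 2, 3 and 4. Between weeks 3 and 2 it was 1835 to 7093 (6386) in injured and 496 to 3696 (2903) in uninjured cord, and between weeks 4 and 3 it was 1211 to 5937 (3078) in injured and 0 to 2807 (75) in uninjured cord. Thinning to the week 2 depth lost calls of Pdgfrb and of no other member.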
